A study of Mus musculus with 51 samples.

Results

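The 8 genes described here encode the core of the gp130 cytokine pathway: the receptors Cntfr, Lifr, Osmr and Il6st (gp130), the kinases Jak1 and Jak2, the transcription factor Stat3 and the feedback inhibitor Socs3. They were chosen by name, out of 22359 protein-coding genes of the mm9 annotation, and every peak of 6 deposited peak lists that overlapped the gene body or the 10 kb on either side of it (the window) was taken. The lists come from ChIP-seq of 2 histone marks, H3K27ac and H3K4me1, in cells derived from C57/BL-6 mouse embryonic stem cells, which carry no transgene or knockdown in these samples as far as the labels say. Astrogliogenic neural precursor cells (aNPC) were grown in medium with N2, EGF and FGF-2, early astrocytes (eA) had been in differentiation medium for 1 day and late astrocytes (lA) for 5 days. The differentiation medium held DMEM, FBS and LIF, so LIF, itself a ligand of Lifr and gp130, came in together with serum and with differentiation. The stage and the medium therefore cannot be told apart in any comparison below. Each list was called by the authors on the merged reads of 2 biological replicates. There is 1 list per mark and stage, so no difference between stages has a replicate error, and none was tested.

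In this pathway a cytokine of the interleukin-6 family (LIF, CNTF, oncostatin M and others) brings a ligand-binding receptor chain together with gp130. JAK kinases bound to the receptor tails phosphorylate STAT3, which enters the nucleus and binds DNA at palindromes of TTC and GAA. Socs3 is a direct target of STAT3 and binds gp130 and JAKs to shut the signal off. In the developing brain, signalling through gp130 and STAT3 is a classical driver of astrocyte formation, acting on the promoter of Gfap. H3K27ac marks active promoters and enhancers, whereas H3K4me1 marks enhancers that may be active or not.

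The promoters and distal regions to which the results below refer first need to be seen as sequence. The 250 bases before the RefSeq start site are shown for Socs3 (the feedback target), Stat3 (the strongest acetylated promoter of the group), Il6st (a start site that changes the count of promoters) and Osmr (acetylated at 1 stage only). RefSeq sequences were placed by an exact match on NCBIM37, the assembly of mm9, and read 5′ to 3′ along the gene. All 4 belong to genes whose position is given as chromosome, start and end, with the strand. Capitals mark a STAT-type palindrome, TTCNNNGAA.
Socs3 upstream, chr11:117830681-117830930, minus strand: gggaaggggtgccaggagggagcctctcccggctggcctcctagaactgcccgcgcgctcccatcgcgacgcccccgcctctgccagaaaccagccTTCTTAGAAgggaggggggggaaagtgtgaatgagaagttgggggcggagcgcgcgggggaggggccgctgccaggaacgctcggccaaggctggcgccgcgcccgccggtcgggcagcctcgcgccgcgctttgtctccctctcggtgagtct
Stat3 upstream, chr11:100800855-100801104, minus strand: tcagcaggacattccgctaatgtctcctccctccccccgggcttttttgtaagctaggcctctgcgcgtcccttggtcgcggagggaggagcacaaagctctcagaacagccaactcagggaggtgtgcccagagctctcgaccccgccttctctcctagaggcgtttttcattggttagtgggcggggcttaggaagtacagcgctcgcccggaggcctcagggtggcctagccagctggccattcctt
Il6st upstream, chr13:113254028-113254277, plus strand: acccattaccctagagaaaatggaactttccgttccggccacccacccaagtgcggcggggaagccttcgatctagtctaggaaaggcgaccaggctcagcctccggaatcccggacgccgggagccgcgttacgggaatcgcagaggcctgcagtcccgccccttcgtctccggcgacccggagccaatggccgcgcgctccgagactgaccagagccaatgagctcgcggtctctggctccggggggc
Osmr upstream, chr15:6824314-6824563, minus strand: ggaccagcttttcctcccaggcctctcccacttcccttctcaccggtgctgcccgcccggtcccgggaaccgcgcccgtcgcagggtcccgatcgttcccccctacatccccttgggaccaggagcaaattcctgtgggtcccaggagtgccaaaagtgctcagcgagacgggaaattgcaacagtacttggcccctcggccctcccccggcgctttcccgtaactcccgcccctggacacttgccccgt

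These 4 stretches are rich in CpG. The Socs3 stretch has a GC content of 71.6% and 26 CpG, that of Il6st 66.0% and 26 CpG, that of Osmr 66.0% and 18 CpG, and that of Stat3 60.8% and 13 CpG. The palindrome TTCTTAGAA of the Socs3 promoter begins at −154 relative to the start site. TTCNNNGAA was searched on both strands, and of the 8 genes only Socs3 held a match in any of the 14 RefSeq promoters of the group that could be placed. The same search found it in 7.02% of the 32851 RefSeq promoters of that length. The stricter form TTCCNGGAA, each match of which is also a match of TTCNNNGAA, was in none of the 8 genes' promoters and in 0.913% of all. The AP-1 motif TGANTCA was likewise in none of them and in 6.75% of all. A match is only a match of letters and does not show that STAT3 bound.

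The 3 distal regions below are shown, because each was acetylated in eA and lA and not in aNPC and holds one of these motifs, in capitals, within 100 bp of its summit. The bases run from 100 before to 100 after the summit with the highest −log10 q, on the plus strand.
Socs3 distal, chr11:117825082-117825282: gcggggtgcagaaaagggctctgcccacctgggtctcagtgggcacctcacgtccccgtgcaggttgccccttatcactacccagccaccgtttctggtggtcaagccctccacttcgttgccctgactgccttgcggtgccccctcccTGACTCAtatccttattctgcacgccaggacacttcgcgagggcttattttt
Osmr distal, chr15:6800363-6800563: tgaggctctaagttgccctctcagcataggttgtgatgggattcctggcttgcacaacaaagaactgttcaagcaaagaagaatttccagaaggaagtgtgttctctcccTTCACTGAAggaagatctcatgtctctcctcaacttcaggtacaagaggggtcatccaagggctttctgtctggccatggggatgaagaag
Jak1 distal, chr4:100870640-100870840: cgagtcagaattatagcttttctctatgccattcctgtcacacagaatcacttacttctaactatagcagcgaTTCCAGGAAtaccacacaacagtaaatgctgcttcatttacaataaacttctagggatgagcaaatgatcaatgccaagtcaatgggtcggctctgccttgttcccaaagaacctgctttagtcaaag

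The Socs3 region is downstream of the gene, and the other two are intronic. TGACTCA begins 49 bases after the summit of the Socs3 region. TTCACTGAA begins 10 bases after the summit of the Osmr region. TTCCAGGAA, at chr4:100870713-100870721, begins 27 bases before the summit of the Jak1 region (−27).

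Across the 8 loci, the H3K27ac lists of aNPC, eA and lA held 43, 66 and 52 peaks, and the H3K4me1 lists held 81, 102 and 90. The 3 H3K27ac lists hold 79413, 83433 and 92700 peaks in all and the H3K4me1 lists 154238, 185478 and 208333, so over the whole genome the number was highest in lA for both marks, whereas at the 8 loci it was highest in eA. The median gene of the 8 had 6, 9 and 6.5 H3K27ac peaks in aNPC, eA and lA, and the median coding gene had 2 at each stage. Because long genes collect more peaks, the share of the window under a peak is the fairer measure. For H3K27ac its median over the 8 genes was 4.83%, 5.16% and 4.57%, against 2.53%, 2.90% and 2.74% over all coding genes. The H3K27ac median was thus highest in eA over all coding genes as well. For H3K4me1 the median over the 8 genes was 8.66%, 10.96% and 9.67%, against 5.33%, 6.32% and 6.53%.

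**Figure D1:**
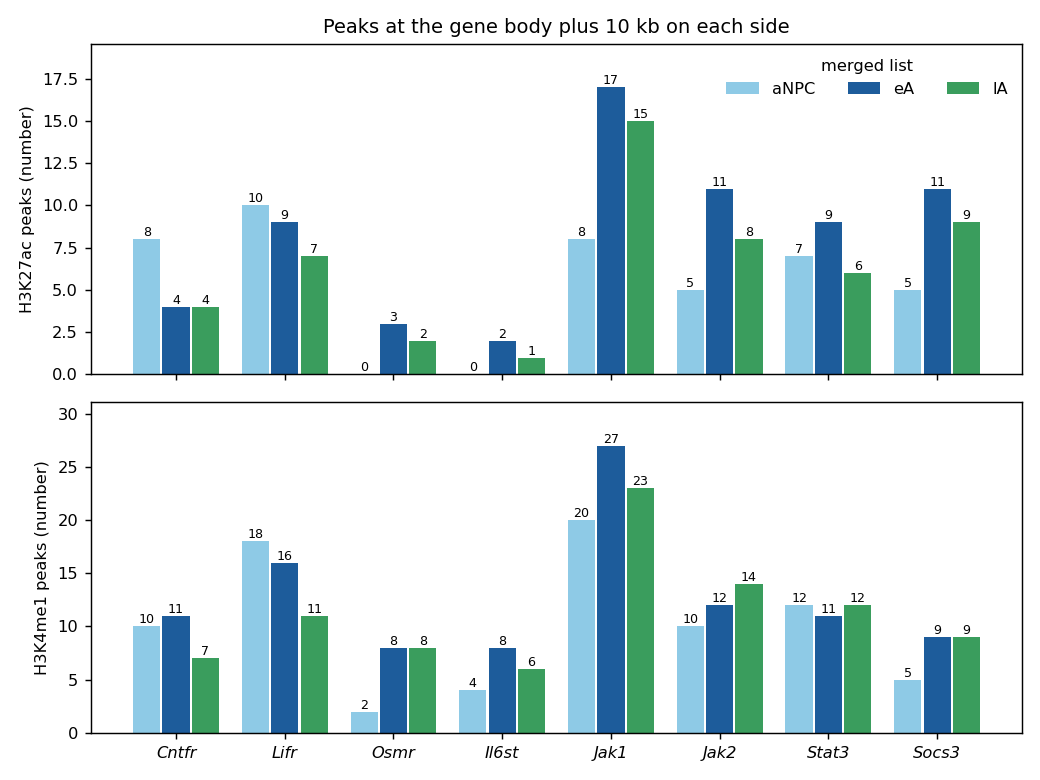
Number of H3K27ac peaks (top) and H3K4me1 peaks (bottom) overlapping the gene body plus 10 kb on each side of the 8 genes, 1 bar per merged list (aNPC, eA and lA). No error bars exist because each list merges both replicates. H3K27ac peaks were most numerous in eA at Osmr, Il6st, Jak1, Jak2, Stat3 and Socs3 and in aNPC at Cntfr and Lifr.

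The stage course of the H3K27ac count differed between the genes. The shares of coding genes set beside it, here and below, include genes without a peak in the window. An H3K27ac peak was in the window of 69.5%, 71.7% and 70.5% of coding genes in aNPC, eA and lA. A gene with no or few peaks can less often differ between stages, so these shares are a low background for the 8 genes. At 6 of the 8 genes the H3K27ac count was higher in eA than in both other stages, a pattern found at 19.2% of all coding genes, but with 50 kb on each side of the genes it held at 2 of them. At 5 genes, Osmr, Il6st, Jak1, Jak2 and Socs3, it was higher in lA than in aNPC, against 34.0% of coding genes. With 5 kb on each side this was left at 3 genes, since the difference was then 0 at Il6st and Socs3. The single lA peak at Il6st lies at the edge of its window, in a promoter region that was acetylated in aNPC too. At Cntfr, Lifr and Stat3 the lA list had fewer than the aNPC list, against 22.0% of coding genes. The difference at Stat3 was a single peak, 7 in aNPC against 6 in lA. For H3K4me1, 5 genes (Osmr, Il6st, Jak1, Jak2 and Socs3) had more peaks in lA than in aNPC, against 46.4% of coding genes, and Cntfr and Lifr had fewer, against 20.1%. The H3K4me1 list of lA is the longest, however, and when each list was reduced to an equal number of its strongest peaks, more peaks in lA than in aNPC were left only at Osmr (by 4) and Socs3 (by 3), Jak2 had equal numbers (a difference of 0), and lA had fewer at Il6st (−1), Jak1 (−2) and Stat3 (−3). The 8 loci together then had 81, 82 and 68 H3K4me1 peaks in aNPC, eA and lA, so the excess in eA over aNPC was down to a single peak. The H3K4me1 count was highest in eA at 3 genes, Cntfr, Il6st and Jak1, against 18.6%, but with the reduced lists Cntfr (10, 9 and 6 peaks from aNPC to lA) and Il6st (4, 4 and 3) no longer had it, whereas Jak1 (20, 23 and 18) and Socs3 (5, 9 and 8) did. A peak that splits in one list counts more than once there, so the distal sites are also given below as merged regions.

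A promoter was the stretch from 1 kb before to 100 bp after a coding start of the GENCODE annotation. By this definition 5, 6 and 5 of the 8 genes had a promoter H3K27ac peak in aNPC, eA and lA, beside 50.6%, 53.2% and 48.2% of coding genes. Stat3, Socs3, Jak1, Jak2 and Lifr had one at every stage, as did 45.2% of coding genes. Osmr had one in eA alone, a pattern of 2.54% of coding genes. Il6st and Cntfr had none at any stage, like 44.2% of coding genes, and each of these absences has a limit that is described with the gene. An H3K4me1 peak overlapped the promoter of 4, 5 and 3 genes, beside 55.4%, 53.6% and 52.7% of coding genes. Those of Lifr, Osmr and Stat3 had one at every stage, as did 46.7% of coding genes, Socs3 had one in aNPC and not in lA, like 6.70%, and Jak2 had one in eA alone, like 1.21%. The Jak2 pattern rests on the edge of the promoter, which begins at chr19:29325318. The eA peak, chr19:29323990-29325330, only just reaches it. At the same place the peaks of aNPC (chr19:29324619-29325107) and lA (chr19:29323948-29324850) end short of it. Promoter peaks are ranked below by −log10 q, the authors' significance at the peak summit, and by the percentile of that value among all peaks of the same list. Values of −log10 q in different lists depend on unknown read depths and were not compared.

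**Figure D2:**
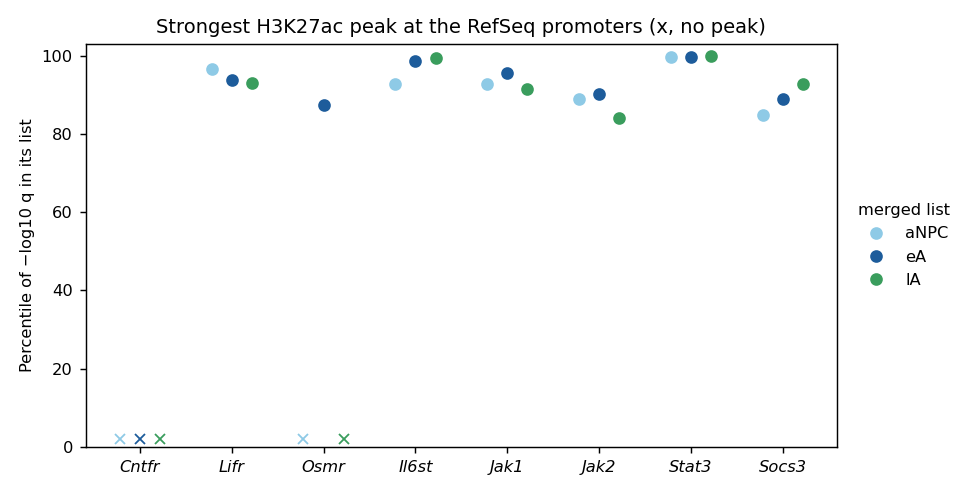
Percentile of −log10 q, within its own list, of the strongest H3K27ac peak that overlapped a RefSeq promoter of each gene (1 kb before to 100 bp after the start), by stage, with a cross for no peak. The Stat3 peaks sit between 99.6 and 99.9, the Osmr promoter has a peak in eA only, at 87.5, and Cntfr has none.

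Among the receptors, Cntfr, the ligand-binding chain for CNTF that gives no signal of its own, had 8, 4 and 4 H3K27ac peaks in aNPC, eA and lA, and 10, 11 and 7 H3K4me1 peaks. H3K27ac was thus most widespread in aNPC, and it covered 4.31% of the Cntfr window there, against 2.90% in eA and 3.35% in lA. Its 8 H3K27ac regions were all distal, of which aNPC had 6, eA had 4 and lA had 3. Of these, 3 intronic regions were acetylated in aNPC alone (chr4:41608336-41608555, chr4:41612167-41612460 and chr4:41612606-41613001), with −log10 q values of 5.38, 9.63 and 4.74. The last 2 of them kept an H3K4me1 peak at every stage. No Cntfr region was gained in lA. Both regions that Cntfr kept at all stages were intronic, at chr4:41623653-41625311 and chr4:41629813-41630318, and the latter held the strongest Cntfr peak of each list, with −log10 q values of 14.5, 27.7 and 16.7 from aNPC to lA. No peak of either mark overlapped the Cntfr promoter. However, of the 32-base stretches at the Cntfr promoter 79.7% occur more than once in the assembly, as do 28.1% of those in its window, and the authors kept only reads that align uniquely. At the promoters of the other 7 genes this share was 0.0% to 6.5%, so the lists say less about the Cntfr promoter than about the others. When only peaks with a −log10 q of 5 or more were kept, Cntfr had 5, 3 and 4 H3K27ac peaks. The Cntfr window also overlaps that of Il11ra1, an interleukin-11 receptor whose promoter lies in it.

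Lifr, the LIF receptor chain that pairs with gp130, showed the same direction. Its H3K27ac peaks numbered 10, 9 and 7 from aNPC to lA, with 18, 16 and 11 H3K4me1 peaks. The share of the Lifr window under H3K27ac was 9.14%, 4.83% and 3.30% at these stages, which placed it at the 90.1, 66.9 and 55.4 percentile of coding genes. The main Lifr promoter was acetylated at every stage. The region before it, chr15:7078531-7079361, had −log10 q values of 148.5, 74.7 and 39.9 from aNPC to lA, at percentiles 96.6, 91.6 and 93.1 of their lists. The region after it, chr15:7079584-7080496, had 54.3, 89.1 and 9.83, but its lA peak began beyond the 100 bp after the start that count as promoter. A region at a further coding start inside the gene, chr15:7104190-7104734, had an H3K27ac peak in aNPC only (−log10 q of 8.67) and H3K4me1 at all stages. Of 9 distal Lifr regions, aNPC had 7, eA had 6 and lA had 4. The strongest of them, intronic at chr15:7093934-7095988, had −log10 q values of 137.4, 18.5 and 20.6. Lifr lost 4 distal regions between aNPC and lA and gained 1, chr15:7151270-7151503, which is downstream of the gene and had a −log10 q of 4.33 in lA. That region carried H3K4me1 in eA and not in aNPC. Its lA peak was weak (percentile 15.2), and a neighbouring region, chr15:7151739-7152119, was acetylated in eA alone (−log10 q of 6.59). Lifr thus had fewer acetylated sites in lA than in aNPC.

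Osmr, the oncostatin M receptor chain, had the opposite course. There was no H3K27ac peak at Osmr in aNPC, whereas eA had 3 and lA had 2, and H3K4me1 peaks numbered 2, 8 and 8. The promoter peak in eA, at chr15:6823480-6824842, was 1363 bp wide, with its summit 221 bp into the gene, a −log10 q of 54.6 and a percentile of 87.5. The Osmr promoter carried an H3K4me1 peak at all stages, with −log10 q values of 23.5, 8.25 and 8.50, so in aNPC the promoter had H3K4me1 without H3K27ac. In lA the acetylation that remained was in an intron, at chr15:6800080-6801168, about 24 kb from the start site. This region had a −log10 q of 17.8 in eA and 10.5 in lA and an H3K4me1 peak at every stage, aNPC included. Its H3K4me1 peak in aNPC was weak, with a −log10 q of 4.86 at percentile 16.5. A neighbouring intronic region, chr15:6799432-6799917, was acetylated in eA alone (−log10 q of 11.6). Of the 32-base stretches in the Osmr window 13.8% occur more than once, but at its promoter none did.

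Il6st encodes gp130, the shared signalling chain. In the window set by the GENCODE annotation it had 0, 2 and 1 H3K27ac peaks in the aNPC, eA and lA lists. These counts miss most of an acetylated start site, since the GENCODE release lacks the first exon of RefSeq, whose start site, chr13:113254278, lies 10938 bp upstream of the GENCODE one and outside the window. At the RefSeq promoter H3K27ac was present at all stages. In aNPC 1 peak with a −log10 q of 96.6 (percentile 92.8) spanned the start site, in eA there were 2 with 162.8 and 112.8, and in lA 2 with 104.8 and 23.2. The stronger eA and lA peaks were at percentiles 98.7 and 99.5. In eA and lA a gap at the start site separated both peaks, at −285 and 281 bp in eA and at −312 and 508 bp in lA, measured from the start site to the summits, whereas aNPC had a single peak with its summit 240 bp into the gene. In windows that reach the RefSeq start, Il6st had 1, 3 and 3 H3K27ac peaks and 6, 9 and 10 H3K4me1 peaks. Apart from this promoter, the only H3K27ac region in the GENCODE window of Il6st was intronic and in eA, chr13:113274149-113274297, with a −log10 q of 8.62. A further lA peak of the extended window lies outside both the GENCODE window and this promoter. With RefSeq starts, the number of genes with an acetylated promoter became 6, 7 and 6.

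Jak1 and Jak2 are kinases that act downstream of gp130. Jak1 had the most gained distal regions of the 8 genes by number, 7, in the longest window (132.9 kb), whereas Socs3 gained 4 in the shortest (24.0 kb). Jak1 had 8, 17 and 15 H3K27ac peaks in the aNPC, eA and lA lists, and 20, 27 and 23 H3K4me1 peaks. H3K27ac covered 2.59%, 5.49% and 5.93% of the Jak1 window from aNPC to lA. Its promoter was acetylated throughout, with −log10 q values of 96.2, 105.3 and 36.1 at percentiles 92.8, 95.6 and 91.6. Of its 16 distal regions, aNPC had 5, eA had 15 and lA had 12, and 14 had their summit in an intron. Jak1 lost no distal region. At aNPC, 4 of the 7 gained regions already carried H3K4me1. A wide difference in rank was seen at a downstream region kept at all stages, chr4:100817295-100818697, at percentiles 17.9, 90.0 and 80.9 of the lists, with −log10 q values of 4.74, 66.0 and 20.7. The −log10 q of the gained Jak1 regions in lA ran from 2.22 at chr4:100893265-100893460 to 16.1 at chr4:100818970-100819959. The Jak1 window reaches into Raver2.

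Jak2 had 5, 11 and 8 H3K27ac peaks in aNPC, eA and lA, and 10, 12 and 14 H3K4me1 peaks. H3K27ac covered 5.35%, 7.48% and 5.88% of its window, with the highest share in eA. Its promoter peak had −log10 q values of 70.4, 66.9 and 24.0 (percentiles 89.0, 90.2 and 84.2), and a second region, chr19:29326441-29327251, began in the first exon just beyond the promoter, ran into the first intron and was acetylated at all stages. All 9 distal Jak2 regions, this one included, had their strongest summit in an intron, with 4, 9 and 6 of them present from aNPC to lA. The strongest, chr19:29339202-29341084, lay about 13 kb into the gene and had −log10 q values of 184.3, 73.8 and 64.2. Jak2 gained 2 regions, chr19:29328554-29329117 and chr19:29368992-29369451, lost none, and had 3 in eA alone. The Jak2 window reaches into Insl6.

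Stat3, the transcription factor, had the highest-ranked promoter peak of the group at each stage, and gained no distal region between aNPC and lA. Its promoter peak had −log10 q values of 306.6, 257 and 179.5 from aNPC to lA, at percentiles 99.6, 99.8 and 99.9 of their lists. A second promoter peak upstream of it, chr11:100801236-100801626, had values of 9.01, 12.1 and 24.9, and H3K4me1 lay over it at every stage (42.6, 35.5 and 14.3). Over the whole window Stat3 had 7, 9 and 6 H3K27ac peaks and 12, 11 and 12 H3K4me1 peaks, and H3K27ac covered 6.03%, 6.51% and 5.79%. There were 7 distal Stat3 regions, of which 3 were present at all stages, 3 in eA alone and 1 in aNPC alone. Those at all stages were a pair about 7 to 8 kb upstream, chr11:100807764-100808418 with −log10 q values of 106.3, 10.2 and 15.3 and chr11:100808475-100809064 with 32.6, 6.80 and 10.9, and an intronic one, chr11:100758514-100760728, with 47.5, 31.0 and 13.3. The first of this pair, at percentile 93.8 in aNPC, was at 51.2 in eA and 72.5 in lA. Those in eA alone lay together in the 3′ part of the gene, between chr11:100752138-100752377 and chr11:100754250-100754404, and only 1 of the 3 reached a −log10 q of 5. The Stat3 window reaches into Stat5a, its neighbour. By the 6 shares of the window under a peak (1 per list), the genes most like Stat3 were Tex12, Dst and Wdr5, with Euclidean distances of 0.875, 1.16 and 1.21 percentage points, among 14523 genes with a peak in every list.

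Socs3, the feedback inhibitor, was the most densely acetylated of the 8. Its gene is short, and its window spans 24.0 kb. H3K27ac peaks numbered 5, 11 and 9 from aNPC to lA and covered 15.18%, 25.01% and 21.39% of the window. Of all coding genes, 369, 5 and 26 had a larger share in aNPC, eA and lA. Windows of other lengths were included in that count, and a short window is filled by fewer peaks. H3K4me1 peaks numbered 5, 9 and 9, but their covered share went the other way, 24.7%, 19.2% and 20.4%, with fewer and wider peaks in aNPC.

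The Socs3 promoter was acetylated at all stages. In aNPC it was 1 peak of 1374 bp across the RefSeq start site (−log10 q of 52.5, percentile 84.9), and in eA and lA 2 peaks on either side of it. The peak upstream of the start site had a −log10 q of 60.1 in eA and 38.8 in lA (percentiles 88.9 and 92.7), and the one inside the gene had 81.1 and 29.7 (92.7 and 88.4). H3K4me1 at the promoter was strong in aNPC, where chr11:117830884-117831375 had a −log10 q of 61.2 and the percentile 99.3. At the same place eA had a weak H3K4me1 peak of 195 bp (−log10 q of 5.27, percentile 24.0) and lA had none. Upstream of it, H3K4me1 peaks appeared at chr11:117831639-117832224 in eA and chr11:117831531-117832197 in lA, so with the RefSeq start, which is 180 bp upstream of the GENCODE one, the promoter still counts as having H3K4me1 in lA.

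Around Socs3, 7 distal regions were present in eA, 6 in lA and 2 in aNPC. The main one, chr11:117836000-117838291, about 6 to 8 kb upstream, was present at all stages, with −log10 q values of 40.4, 71.0 and 53.9, and overlapped H3K4me1 at each. Socs3 gained 4 distal regions and lost none. Of these, chr11:117841147-117841560, about 11 kb upstream, had a −log10 q of 36.5 in eA and 41.1 in lA and H3K4me1 in eA and lA but not aNPC. The region chr11:117840254-117840757, about 10 kb upstream, had 16.4 and 28.4 and no H3K4me1 at any stage. The other 2 gained regions were downstream, at chr11:117825053-117825468 (13.2 and 9.91), shown above with its AP-1 match, and at chr11:117819170-117819598 (6.65 and 2.67), and both had H3K4me1 in aNPC. Each of the 11 H3K27ac peaks of Socs3 in eA had a −log10 q above 5. By the covered shares, Tsen34, 2310047M10Rik and Cd151 were most like Socs3, but at distances of 4.49, 5.30 and 5.50 percentage points they were farther from it than those named for Stat3.

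**Figure D3:**
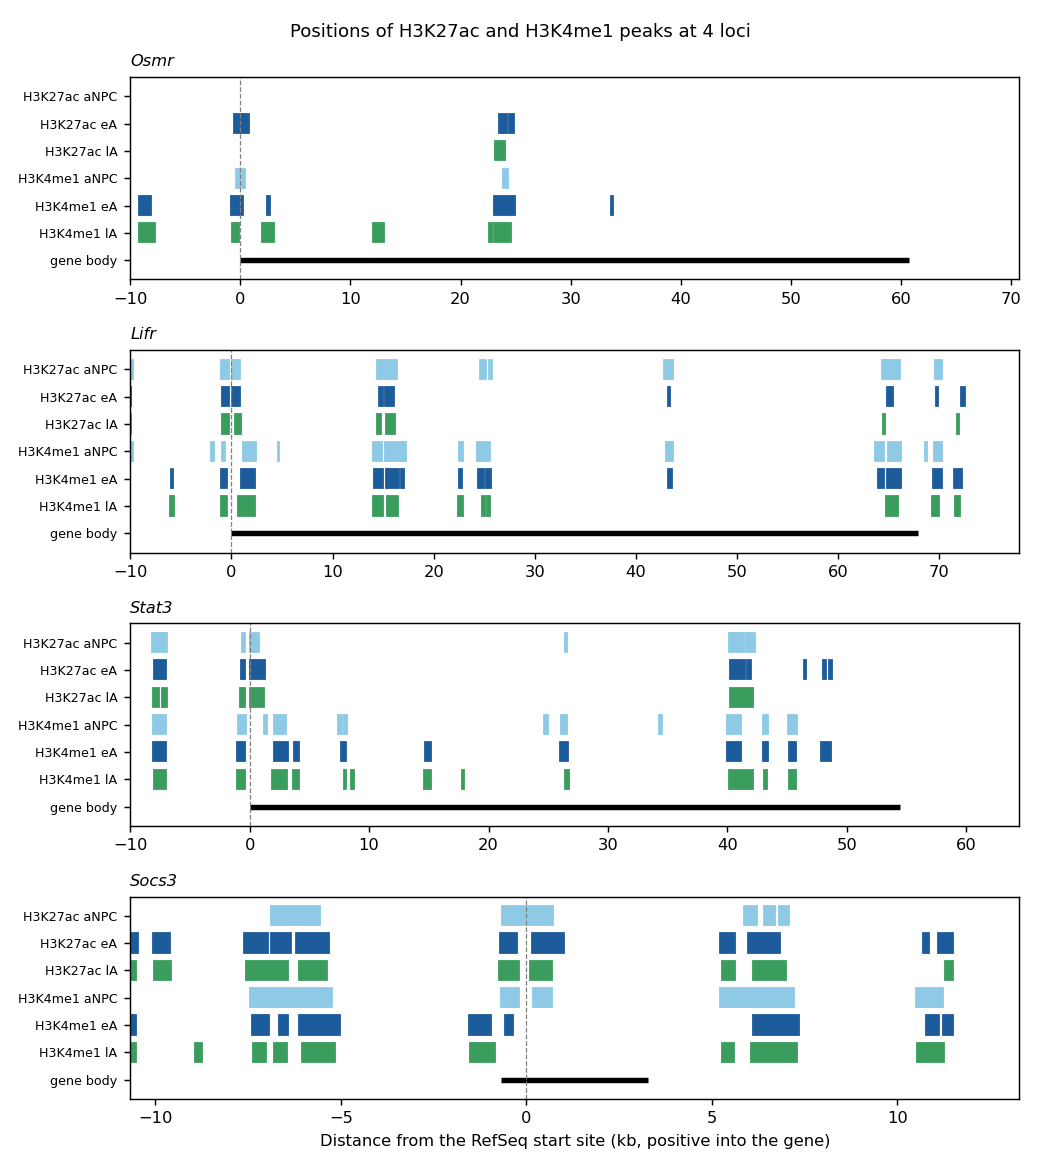
Peaks of the 6 merged lists at Osmr, Lifr, Stat3 and Socs3 by distance from the RefSeq start site (kb, positive into the gene, scale differs between panels), with the GENCODE gene body as a black line. Osmr shows no H3K27ac in aNPC, Lifr loses distal H3K27ac peaks along its body, the 2 main Stat3 clusters about 8 kb upstream and 41 kb inside stay at all stages, and Socs3 gains upstream and downstream peaks in eA and lA.

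Merged into regions, the H3K27ac peaks at the 8 genes made 69 regions, 9 at the genes' own promoters and 60 distal. The aNPC list had 29 of the distal ones, the eA list 51 and the lA list 36. Most were intronic (39), with 8 upstream, 11 downstream and 2 in the 3′ UTR of Lifr. Since these classes use the GENCODE starts, 1 of the upstream regions, present at all stages, is the RefSeq promoter of Il6st (chr13:113253485-113255472). Of the 60, 20 (33.3%) were acetylated at all stages, against 20.4% of the 71475 distal regions in the windows of all coding genes. In eA alone there were 16 (26.7%, 95% Wilson interval 17.1 to 39.0%), against 13.8%, and every one of the 8 genes had at least 1 of them. In eA and lA there were 13 (21.7%), against 15.7%. In aNPC alone there were 6 (10%), against 22.1%, and in lA alone 2 (3.33%, interval 0.919 to 11.4%), against 19.8%. The remaining 3 were in aNPC and eA (2, against 4.90%) and in aNPC and lA (1, against 3.27%). These intervals cover counting error only, and regions of one gene are not independent. The group thus held more regions at all stages and in eA alone, and fewer that were private to aNPC or lA, than the windows of coding genes at large.

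**Figure D4:**
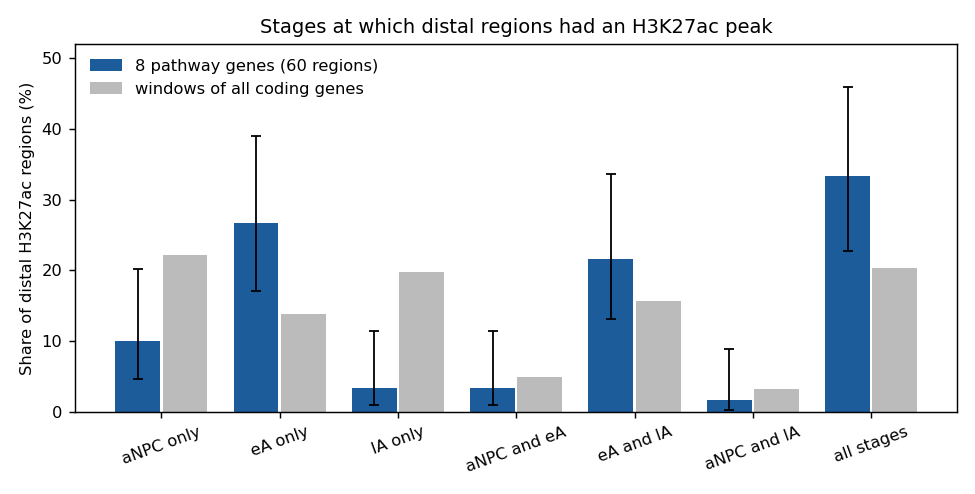
Share (%) of distal H3K27ac regions by the stages at which they had a peak, for the 60 regions at the 8 genes (blue, with 95% Wilson intervals that cover counting error only) and for all 71475 distal regions in the windows of coding genes (grey). Regions in eA alone made up 26.7% at the 8 genes and 13.8% in all windows, and regions in lA alone 3.33% and 19.8%.

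The regions in eA alone were mostly weak. Their percentile in the eA list had a median of 30.3 and a maximum of 56.6, and 11 of 16 reached a −log10 q of 5. In the windows of all coding genes, regions of this kind had a median percentile of 20.7 and a maximum of 91.8. Of these, 4830 of 9837 reached a −log10 q of 5. Of the 16, 7 overlapped H3K4me1 in aNPC, 13 did in eA and 9 did in lA. In the windows of all coding genes the corresponding shares were 56.9%, 71.4% and 66.1%.

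Between aNPC and lA, 15 distal regions were gained (25%, Wilson interval 15.8 to 37.2%), against 36.9% of the 115754 distal regions of the genome, and 8 were lost (13.3%, interval 6.91 to 24.2%), against 28.4%. The gains fell on Jak1 (7), Socs3 (4), Jak2 (2), Osmr (1) and Lifr (1), and the losses on Lifr (4), Cntfr (3) and Stat3 (1). Lifr alone had both, and Il6st had neither in its GENCODE window. With windows extended to the RefSeq starts, 16 regions were gained. The lost regions had −log10 q values in aNPC of 2.99, 7.40, 7.09 and 16.85 at Lifr, 5.38, 9.63 and 4.74 at Cntfr and 2.98 at Stat3. When only peaks with a −log10 q of at least 5 were kept, 5 regions were lost. Of the 15 gained regions, 8 already had H3K4me1 in aNPC, against 48.3% of gained regions in the windows of all coding genes and 46.1% of those in the genome, and 12 had it in lA, against 82.3%. Both shares were near that background. Of the 8 lost regions, 6 still carried H3K4me1 in lA. Over the genome as a whole 54.9% of lost distal regions did.

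H3K4me1 without any acetylation was frequent as well. The H3K4me1 peaks of the 8 genes merged into 115 regions, and 58 of them (50.4%) overlapped no H3K27ac peak at any stage, against 59.2% genome-wide. The range between genes was wide, from 2 of 8 at Socs3, 3 of 10 at Cntfr and 5 of 17 at Lifr to 10 of 16 at Stat3 and 10 of 11 at Il6st. Of these 58 regions, 14 had H3K4me1 in eA and lA, 13 at all stages and 13 in lA alone, whereas of the 148820 such regions in the genome 18866 had it in eA and lA, 29024 at all stages and 52115 in lA alone.

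STAT-type palindromes were not frequent at the summits. Within 100 bp of the strongest summit, TTCCNGGAA occurred in 1 of 69 regions, the gained Jak1 intron shown above, beside 0.658% of all 132940 H3K27ac regions. TTCNNNGAA occurred in 5 of 69, beside 6.21%. They were a Socs3 region downstream of the gene that was acetylated at all stages (chr11:117823590-117824826), the gained Osmr and Jak1 introns, and the regions in eA alone at Il6st (chr13:113274149-113274297) and Jak2 (chr19:29327321-29327519). TGANTCA occurred in 3 of 69, beside 6.03%, at the Jak2 promoter, the gained Socs3 region and a Jak1 intron in eA alone. These shares were close to those of all regions.

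Further genes of the pathway, 25 in a fixed list of ligands, receptors, kinases, STATs and feedback regulators, give the setting. A promoter H3K27ac peak was present at 14, 15 and 16 of them from aNPC to lA, where the shares of coding genes were 50.6%, 53.2% and 48.2%. H3K27ac peaks were more numerous in lA than in aNPC at 16 of them (against 34.0% of coding genes), fewer at 3 (against 22.0%) and equal at 6. Promoter H3K27ac was present in lA and not in aNPC at 3 ligand genes, a pattern of 2.66% of coding genes. They were Cntf (1, 7 and 5 H3K27ac peaks in aNPC, eA and lA), Il6 (0, 0 and 4) and Clcf1, which encodes a cytokine that also binds Cntfr (3, 6 and 5).

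Markers of cell types were read as a check of the labels. A promoter H3K27ac peak was present at 4, 4 and 5 of 7 astrocyte markers in aNPC, eA and lA, at 4 of 4 neural progenitor markers in each list, at 1 of 4 neuronal markers and at none of 3 oligodendrocyte, 3 microglial and 3 pluripotency markers. The astrocyte counts are near the shares of all coding genes given above. Among these markers Aqp4 had a promoter peak in lA only and Gja1 in eA and lA, whereas S100b had one in aNPC and in neither astrocyte list. By the number of H3K27ac peaks in the window, lA had more than aNPC at 4 of 7 astrocyte, 1 of 4 neural progenitor, 3 of 4 neuronal, 2 of 3 oligodendrocyte, 0 of 3 microglial and 1 of 3 pluripotency markers. It had fewer at 2, 2, 1, 0, 0 and 0 of them. Counts thus rose at some genes of other cell types, such as Rbfox3 (0, 7 and 5 peaks from aNPC to lA) and Mbp (5, 9 and 12), and fell at Dcx (6, 1 and 0). None of these 3 had a promoter H3K27ac peak at any stage, and the strength of their peaks is not given here. The paper reports that Rbfox3 was not enriched for H3K27ac during astrogliogenesis. The part of other cell types in the counts at the 8 genes was not tested. Progenitor marker promoters thus kept H3K27ac in eA and lA. In a mixed culture, fewer cells with a mark and less of the mark per cell cannot be told apart.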

How the data were processed

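ChIP-seq for H3K27ac and H3K4me1 was done with 2 biological replicates per stage and mark. According to the study's methods, the authors aligned reads uniquely to mm9 with Bowtie, merged both replicates and called peaks with MACS2 without an input control. The deposited lists give −log10 of the q-value at each summit, and the authors' summit offset. Of 51 samples in the series, 8 RNA-seq samples with conflicting labels were left unassigned, and only the 6 peak lists were used here. Read depth is unknown.

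Peaks on chromosomes other than the mitochondrial one were intersected, by at least 1 bp, with GENCODE M1 gene bodies plus 10 kb. Overlapping or touching H3K27ac peaks of the 3 stages were merged into regions. A region was distal if it overlapped no coding promoter, gained if present in lA and not aNPC, and lost in the opposite case. All results are counts with no test, beside the same counts over all coding genes. Intervals are 95% Wilson intervals. All 8 genes are named. Of the other 25 pathway genes, those whose promoter H3K27ac differed between aNPC and lA are named, except 1 that is not reported here, as are coding genes in shared windows and the 3 genes nearest in covered shares to Stat3 and Socs3. The genes, lists and motifs were chosen with earlier results of these data known. The functions were tested on simulated intervals and sequences. Python 3.11.15, SciPy 1.17.1, pysam 0.24.0, samtools 1.23.1 and matplotlib 3.10.9 were used.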

Additional observations from a re-analysis of the deposited data

How the results depend on the processing

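No paired analysis was possible because each list merges both replicates, and for the same reason no replicate could be left out. Widening the windows to 50 kb gave 93, 128 and 126 H3K27ac peaks in aNPC, eA and lA and 174, 203 and 203 H3K4me1 peaks, and the excess in eA was then seen at 2 of the 8 genes instead of 6. It also gave 47 gained regions, 23 of them with H3K4me1 in aNPC, 19 lost regions and 3 with TTCCNGGAA. With the gene body alone, lA had 33 H3K27ac and 59 H3K4me1 peaks, and 9 regions were gained, 5 with H3K4me1 in aNPC. With 5 kb on each side, 3 genes had more H3K27ac peaks in lA than in aNPC. When the summit had to lie inside, 3 promoters were acetylated in aNPC and 13 regions were lost. With a −log10 q of at least 5, 5 regions were lost. TTCCNGGAA was found in 3 regions within 250 bp of the summit and in 5 over whole regions. The difference of lA from aNPC turned at Stat3 for H3K27ac (3 with 50 kb, −1 as reported) and at Socs3 for H3K4me1 (−2 in the gene body, 4 as reported), and, with lists of equal length, at Il6st (−1, 2 as reported) and Jak1 (−2, 3 as reported) for H3K4me1. Windows extended to the RefSeq starts, added after the data were seen, left 5 genes with most H3K27ac peaks in eA. Of 114 alternative values of the counts over the 8 genes, 93 stayed within 1.5 times. In all of these a region without a peak lay under a threshold of unknown depth, so absence of a peak is not absence of the mark.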
